A study of Mus musculus with 6 samples.

Results

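The carbonic anhydrases are zinc enzymes that turn carbon dioxide and water into bicarbonate and a proton, and back. The 10 genes described here (Car1, Car2, Car3, Car4, Car5a, Car8, Car9, Car12, Car13 and Car14) were chosen by name from 18193 measured mouse genes, by a rule that sets no threshold on their values. They have 20 probe sets among the 45037 analysed, a probe set being several oligonucleotides that read 1 transcript, and 5 of the genes have more than 1. Livers came from C57BL/6 mice, all labelled as males aged 6 to 8 weeks with free access to food. The genotypes were wild-type (HLJ1+/+, Dnajb4+/+ below) and HLJ1 knockout (Dnajb4-/-), the latter made by gene targeting in embryonic stem cells and so not confined to the liver. There were 3 mice per genotype, named by the labels as independent, with 1 Affymetrix array each. HLJ1, the product of Dnajb4, is a co-chaperone of the heat shock protein 40 family.

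Members of the family differ mainly in where they work. Car1, Car2, Car3 and Car13 are cytosolic, and Car8 is a cytosolic relative that has lost the catalytic activity. Car5a sits in the mitochondrial matrix, where it supplies bicarbonate to carbamoyl phosphate synthetase for the urea cycle and to pyruvate carboxylase for glucose synthesis. Car4 is held on the cell surface by a lipid anchor, and Car9, Car12 and Car14 span the membrane with the active site outside the cell. Car3 is an abundant protein of liver, skeletal muscle and fat whose activity on carbon dioxide is low, and in the rat its liver level is higher in males.

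Signals are normalized intensities on a linear scale, with array medians of 31.8 to 32.5 and lower quartiles of 12.2 to 12.7. Levels of different probe sets cannot be set against each other, because their oligonucleotides bind with different strength. The value of a gene is the mean of its probe sets on the log2 scale, put back on the linear scale. All log2 differences are Dnajb4-/- minus Dnajb4+/+, and a gene or probe set passed the test at an adjusted p under 0.05 (limma, Benjamini-Hochberg over all genes or all probe sets). Dnajb4 itself read 131.7, 142.5 and 135.3 in Dnajb4+/+ and 116.5, 125.4 and 130.0 in Dnajb4-/- livers (adjusted p = 0.145, limma), so the gene mean does not by itself check the labels. The Dnajb4+/+ arrays carried a transcript not expected from their male label, as Xist, the RNA that silences an X chromosome in female cells, read 364 to 402 there and 14.3 to 17.2 in Dnajb4-/- livers. Of 3 measured Y-linked genes none passed the comparison: Eif2s3y read 68.7 ± 5.34 and 79.6 ± 1.99, Kdm5d 25.5 ± 0.893 and 25.8 ± 0.413, and Uty 20.2 ± 1.39 and 24.3 ± 1.83 in Dnajb4+/+ and Dnajb4-/- livers (SD, n = 3; adjusted p = 0.0655, 0.826 and 0.0507, limma). Only Eif2s3y lay above the array medians, and Kdm5d and Uty lay below them in both genotypes, where a difference would be hard to see. The Dnajb4+/+ arrays thus carried Xist. Without detection calls, a reading of Eif2s3y above the array medians does not by itself show Y-linked RNA in either genotype. The source of the Xist signal was not tested. All 15 measured genes known for higher expression in female liver were lower in Dnajb4-/- livers, with a median log2 difference of -3.67, and of 12 male-high genes 7 were higher, 1 was lower and 4 did not pass. The genotype and these sex-biased transcripts cannot be told apart, since each array of a genotype carried them alike. The labelled tissue was borne out by the hepatocyte markers, whose summed signal was 152549 to 153014 in Dnajb4+/+ and 149287 to 149673 in Dnajb4-/- livers.

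At gene level, 2 of the 10 carbonic anhydrases passed the test, Car3 and Car2, both lower in Dnajb4-/- livers. Of all genes 14.7% passed (9.57% lower and 5.09% higher). The genotypes did not overlap for 5 members (50.0%), beside 35.5% of all genes. The median log2 difference of the members was 0.016, and that of all genes 0.0075. Under other scalings Car14 passed as higher, which gave 1 higher and 1 lower with quantile normalization (Car2 did not pass there) and 1 higher and 2 lower with arrays centred on brighter probe sets. Neither count sets the family apart from the rest of the array. Among the 20 probe sets, 3 passed as lower (15.0%) and none as higher, beside 10.4% of all probe sets (6.51% lower and 3.91% higher), and the genotypes did not overlap for 8 of the 20 (40.0%), beside 32.4% of all probe sets.

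**Figure D1:**
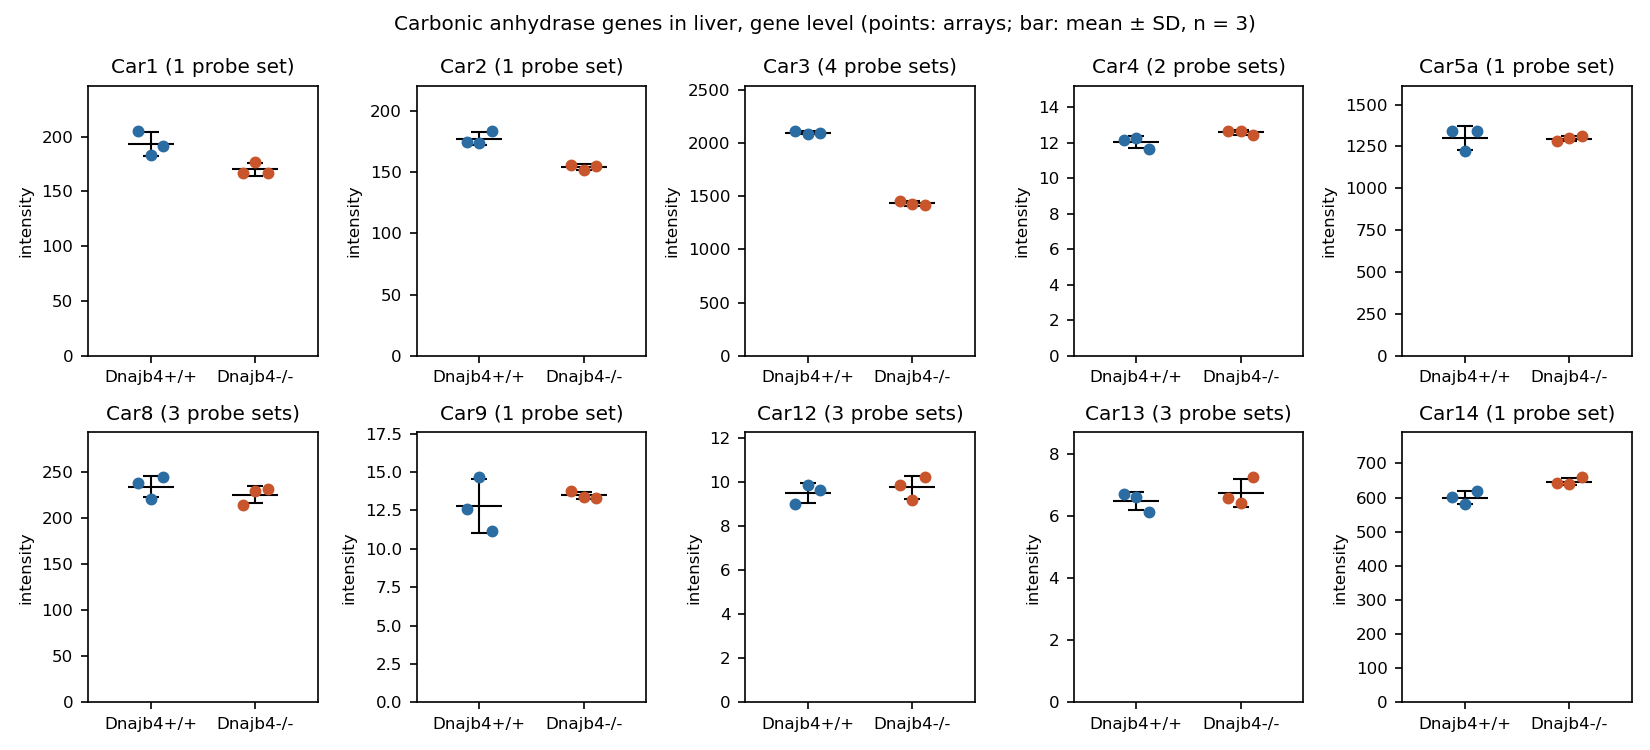
Normalized intensity (y axes, linear scale from 0) of each of the 10 carbonic anhydrase genes in the 3 Dnajb4+/+ and 3 Dnajb4-/- livers, with mean and SD (n = 3). Car3 and Car2 are lower in Dnajb4-/- livers and passed the test, while Car1, Car4 and Car14 do not overlap between the genotypes and did not pass.

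Car3 had the largest difference among the members, but its 4 probe sets did not move together. The gene mean was 2112, 2084 and 2092 in Dnajb4+/+ livers and 1457, 1425 and 1417 in Dnajb4-/- livers, with no overlap. The means were 2096 ± 14.2 and 1433 ± 21.1 (SD, n = 3), a change of -0.55 on the log2 scale (standard error 0.04, 95% interval -0.63 to -0.46, adjusted p = 0.000168, limma). This fall came from the probe sets 1430584_s_at and 1453588_at, both annotated to the same GenBank sequence, which is not a RefSeq transcript. The other 2, 1449434_at and 1460256_at, are annotated to the RefSeq transcript of Car3.

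Probe set 1430584_s_at read 474.4, 464.6 and 456.4 in Dnajb4+/+ livers and 196.5, 204.4 and 207.1 in Dnajb4-/- livers. The signal was 2.30-fold lower in the knockout, with means of 465 ± 9.05 and 203 ± 5.48 (SD, n = 3). On the log2 scale it differed by -1.20 (standard error 0.05), with adjusted p = 2.90e-05 from limma. Its companion 1453588_at read 227.1, 213.1 and 225.7 in Dnajb4+/+ livers and 102.6, 93.6 and 85.1 in Dnajb4-/- livers. Both therefore separated the genotypes with a wide gap compared with the spread within each genotype. For 1453588_at the means were 222 ± 7.72 and 93.8 ± 8.75 (SD, n = 3), and the difference was -1.25 in log2 (standard error 0.08, adjusted p = 0.000218, limma), or 2.37-fold lower.

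The probe sets for the RefSeq transcript showed no fall. Probe set 1449434_at read 17979, 17936 and 17715 in Dnajb4+/+ livers and 19678, 18916 and 19179 in Dnajb4-/- livers, so that every knockout array lay above every wild-type array. The means were 17877 ± 141 and 19258 ± 387 (SD, n = 3), and the log2 difference of 0.11 (95% interval 0.00 to 0.21) did not pass (adjusted p = 0.182, limma). These values are among the upper part of the array's range, whose highest value per array was 31612 to 33106. For 1460256_at the arrays read 10267, 10631 and 10493 in Dnajb4+/+ and 11363, 11405 and 11941 in Dnajb4-/- livers, again with the knockout arrays above. The means were 10464 ± 184 and 11570 ± 322 (SD, n = 3), and the log2 difference was 0.14 (95% interval 0.03 to 0.26, adjusted p = 0.104, limma). With a variance model that follows the signal, both passed as higher (adjusted p = 5.28e-05 and 5.02e-05, limma). The Car3 value taken from these 2 probe sets, a choice made after seeing the data, was 0.13 with adjusted p = 0.0595 (limma), and that from the other 2 was -1.22.

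**Figure D2:**
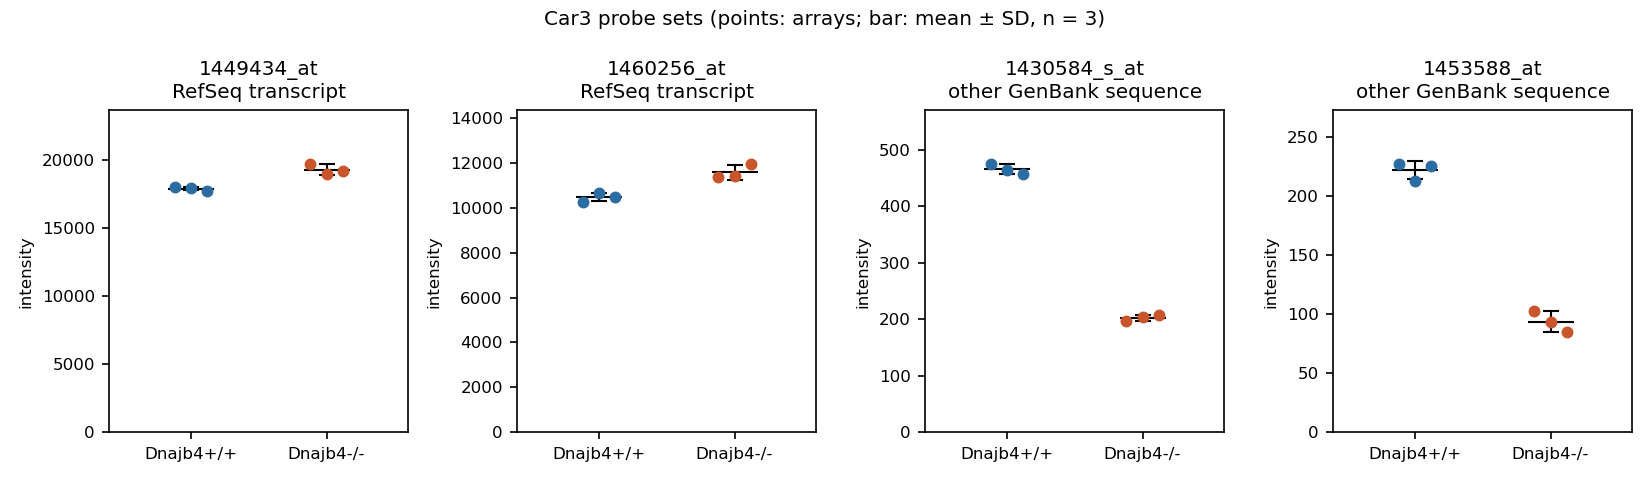
Normalized intensity (y axes, linear scale from 0) of the 4 Car3 probe sets in the 3 arrays of each genotype, with mean and SD (n = 3). The probe sets 1449434_at and 1460256_at read slightly higher in Dnajb4-/- livers, and 1430584_s_at and 1453588_at read 2.30-fold and 2.37-fold lower.

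The disagreement was then tested directly, by a comparison also chosen after the values were seen. Each probe set was set against the one with the highest mean of the same gene on the same array, and the difference was compared between genotypes for 16752 such pairs, of which 6.52% passed. Of 10 pairs among the carbonic anhydrases 2 passed, both in Car3. Relative to 1449434_at, the log2 difference of 1430584_s_at was -1.31 (standard error 0.07, 95% interval -1.46 to -1.15, adjusted p = 0.000274, limma). For 1453588_at the value was -1.35 (standard error 0.08, 95% interval -1.54 to -1.17, adjusted p = 0.000532, limma). The second RefSeq probe set, 1460256_at, differed from 1449434_at by 0.038 (95% interval -0.11 to 0.19, adjusted p = 0.755, limma). Taken as a ratio within each array and expressed in percent of the Dnajb4+/+ mean, 1430584_s_at over 1449434_at was 101.4%, 99.6% and 99.0% in Dnajb4+/+ livers and 38.4%, 41.5% and 41.5% in Dnajb4-/- livers. The same ratio for 1453588_at was 101.7%, 95.7% and 102.6%, and 42.0%, 39.8% and 35.7%. Both ratios separate the genotypes without overlap (two-sided exact permutation test, p = 0.1 for each, the smallest that 3 arrays against 3 allow).

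Other values differed between the genotypes alongside these ratios. Probe sets at the 3' and 5' ends of a control transcript gave a ratio, a mark of intact RNA and of labelling, of 1.17 ± 0.0134 for Gapdh in Dnajb4+/+ livers and 1.45 ± 0.0265 in Dnajb4-/- livers, and 2.65 ± 0.0485 and 3.17 ± 0.0602 for Actb (SD, n = 3). Skeletal muscle, a tissue rich in Car3, has 18 measured markers, of which 13 were lower and 5 did not pass, with a median log2 difference of -0.50. Their summed signal was 1037 to 1088 in Dnajb4+/+ and 580.5 to 601.9 in Dnajb4-/- livers. The share of them that passed was 72.2%, beside 14.7% of all genes. The fast troponin Tnnc2 read 106.3, 101.7 and 131.2, and 27.8, 20.4 and 23.4. Of 10 measured adipocyte markers 40.0% passed: 1 was higher (Lpl, lipoprotein lipase, 0.42) and 3 were lower, among them the fat hormone Adipoq (-0.46). Their summed signal was 2045 to 2062 and 1929 to 2001. This sum rests largely on Thrsp, at 1244 ± 9.38 and 1006 ± 19.7, and Lpl, at 495.5 ± 14.5 and 661.1 ± 16.3 (SD, n = 3). Adipoq read 19.8 ± 1.78 and 14.4 ± 1.58 (SD, n = 3), below the median of every array. The part of any of these, or of the sex-biased transcripts, in the Car3 signals was not tested. In bulk tissue, fewer cells of a type and less RNA per cell cannot be told apart. The stretch of Car3 read by these probe sets was not mapped here, and the RefSeq table also lists a long noncoding RNA, Gm41999, that overlaps Car3. In addition, the suffix of 1430584_s_at marks oligonucleotides that can match more than 1 transcript.

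**Figure D3:**
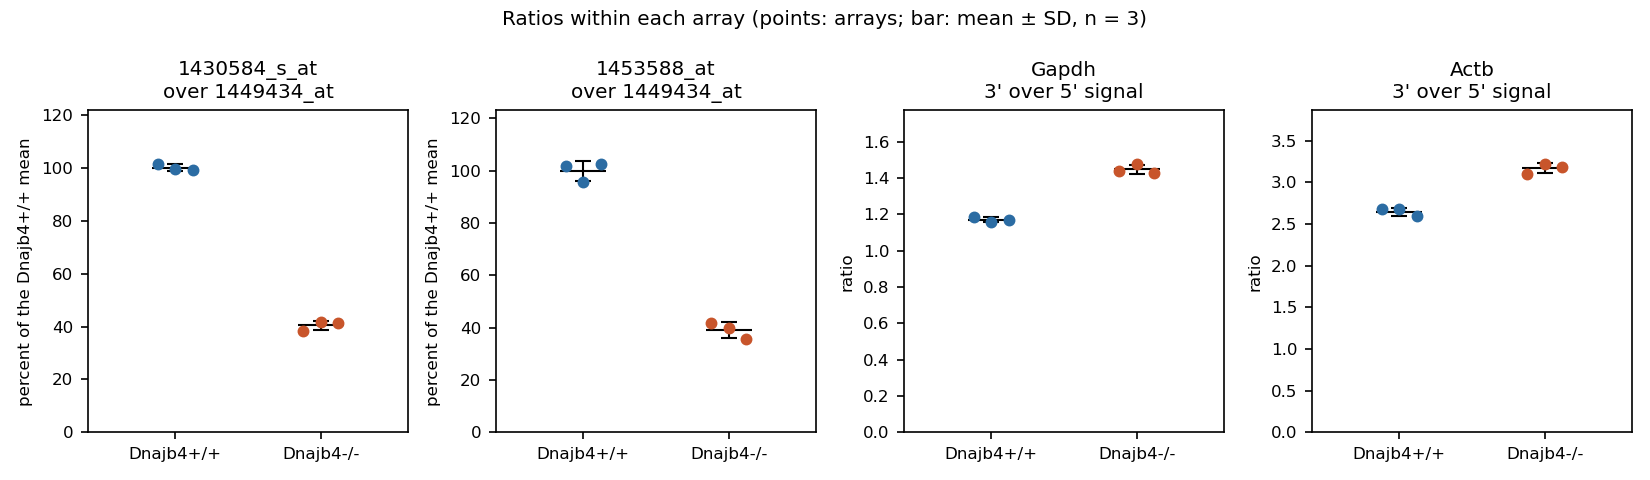
Ratios within single arrays of both genotypes, with mean and SD (n = 3): the 2 left panels show the Car3 probe sets 1430584_s_at and 1453588_at over 1449434_at in percent of the Dnajb4+/+ mean, and the 2 right panels the ratio of 3' to 5' signal of Gapdh and Actb. The Car3 ratios lie at 35.7% to 42.0% in Dnajb4-/- livers, and both control ratios are higher there.

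Car2, a highly active cytosolic carbonic anhydrase of red blood cells, kidney and other tissues, was modestly lower in Dnajb4-/- livers. Its single probe set 1448752_at read 174.4, 174.1 and 183.5 in Dnajb4+/+ and 156.0, 151.4 and 154.6 in Dnajb4-/- livers. The groups did not overlap, and the means of 177 ± 5.34 and 154.0 ± 2.34 (SD, n = 3) gave a log2 difference of -0.20 (standard error 0.04, 95% interval -0.30 to -0.11, adjusted p = 0.0175 over all genes and 0.0400 over all probe sets, limma). Over all genes, the call was lost without any 1 of 4 arrays: without Dnajb4+/+ replicate 1 or 3 the adjusted p was 0.0506 and 0.0569, and without Dnajb4-/- replicate 2 or 3 it was 0.0640 and 0.0542 (limma). It was kept without Dnajb4+/+ replicate 2 (0.0373) and without Dnajb4-/- replicate 1 (0.0445, limma). With quantile normalization between arrays, the difference was -0.14 and did not pass (adjusted p = 0.0618, limma). Over all probe sets, the call was lost without any single array (adjusted p = 0.0750 to 0.118, limma) and in 9 of 14 alternatives.

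Car1, the most plentiful carbonic anhydrase of red blood cells, had a difference of like size that did not pass. Its signal was 205.1, 183.0 and 191.4 in Dnajb4+/+ and 167.2, 176.6 and 166.4 in Dnajb4-/- livers, without overlap. The log2 difference was -0.18 (standard error 0.05, 95% interval -0.31 to -0.06, adjusted p = 0.0664, limma). Among genes above the median signal Car1 passed (adjusted p = 0.0237, limma), as did 3248 of the 9096 genes tested there. Since both genes mark red blood cells, the erythroid markers are given beside them. Of 10 measured, 1 was lower (Klf1, the erythroid transcription factor, -0.61) and 9 did not pass, with a median of -0.016. Their summed signal was 2250 to 2322 in Dnajb4+/+ and 2165 to 2240 in Dnajb4-/- livers. The part of red blood cells in the Car1 and Car2 signals was not tested.

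Car1, Car2, Car3 and Car13 lie side by side on chromosome 3 in the RefSeq annotation of GRCm38.p6, with only pseudogenes and the noncoding RNA Gm41999 among them. Dnajb4 and Car14 are on chromosome 3 as well, outside this group. The distance of Dnajb4 from any of these genes was not examined. Car13, a cytosolic member, read 6.49 ± 0.296 and 6.76 ± 0.440 (SD, n = 3), below the lower quartile of every array. Its log2 difference of 0.056 had a 95% interval of -0.09 to 0.20 (adjusted p = 0.589, limma). The gene means of the neighbours thus ranged from -0.55 for Car3 to 0.056 for Car13. That of Car3 averages probe sets that moved apart, and its 2 RefSeq probe sets alone gave 0.13.

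Car5a, the mitochondrial enzyme typical of the liver, showed no detectable difference. The arrays read 1342, 1221 and 1342 in Dnajb4+/+ and 1281, 1299 and 1312 in Dnajb4-/- livers, and the groups overlapped. The log2 difference was -0.0036 with a 95% interval of -0.12 to 0.11 (adjusted p = 0.970, limma).

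Genes that use bicarbonate, in the mitochondria or elsewhere, or handle ammonia were examined from a list of 17, of which 15 were measured. Of these, 3 were lower, none was higher and 12 did not pass, with a median of -0.050. Asl, the urea cycle enzyme that splits argininosuccinate, fell from 4448 ± 90.2 to 3672 ± 88.7 (SD, n = 3), by 0.28 on the log2 scale (adjusted p = 0.00482, limma). Glul, glutamine synthetase, differed by -0.20 and Glud1, glutamate dehydrogenase, by -0.15 (adjusted p = 0.0146 and 0.0275, limma). None of the 3 takes up bicarbonate itself. Asl passed without any single array. The call of Glud1 was lost without any 1 of the 6 arrays and with centring on brighter probe sets. That of Glul was lost without Dnajb4+/+ replicate 1 or Dnajb4-/- replicate 3, where the count was 1. Both were lost with blocking by replicate number. Glul was also lost with the brightest probe set per gene, with a linear mean over probe sets and without probe sets of a less specific suffix. Pcca, which uses bicarbonate, passed in each of these last settings, and Acacb, which also does, in all but the suffix one.

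Car8, which lacks enzyme activity and is known in the cerebellum for binding a receptor that releases calcium from stores, had 3 probe sets. The one with the highest signal, 1427482_a_at, read 2314, 2198 and 2310 in Dnajb4+/+ and 2341, 2364 and 2302 in Dnajb4-/- livers, with overlap and a log2 difference of 0.039 (adjusted p = 0.659, limma). Probe set 1457904_at also overlapped, at 85.0 ± 9.78 and 86.1 ± 8.41 (SD, n = 3). Probe set 1424958_at did not, at 62.7, 66.4 and 70.4 against 55.2, 55.3 and 59.9. Its log2 difference of -0.23 did not pass (adjusted p = 0.0667, limma), nor did its difference from 1427482_a_at (-0.27, adjusted p = 0.0875, limma). The gene mean differed by -0.056 (95% interval -0.18 to 0.07, adjusted p = 0.538, limma).

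**Figure D4:**
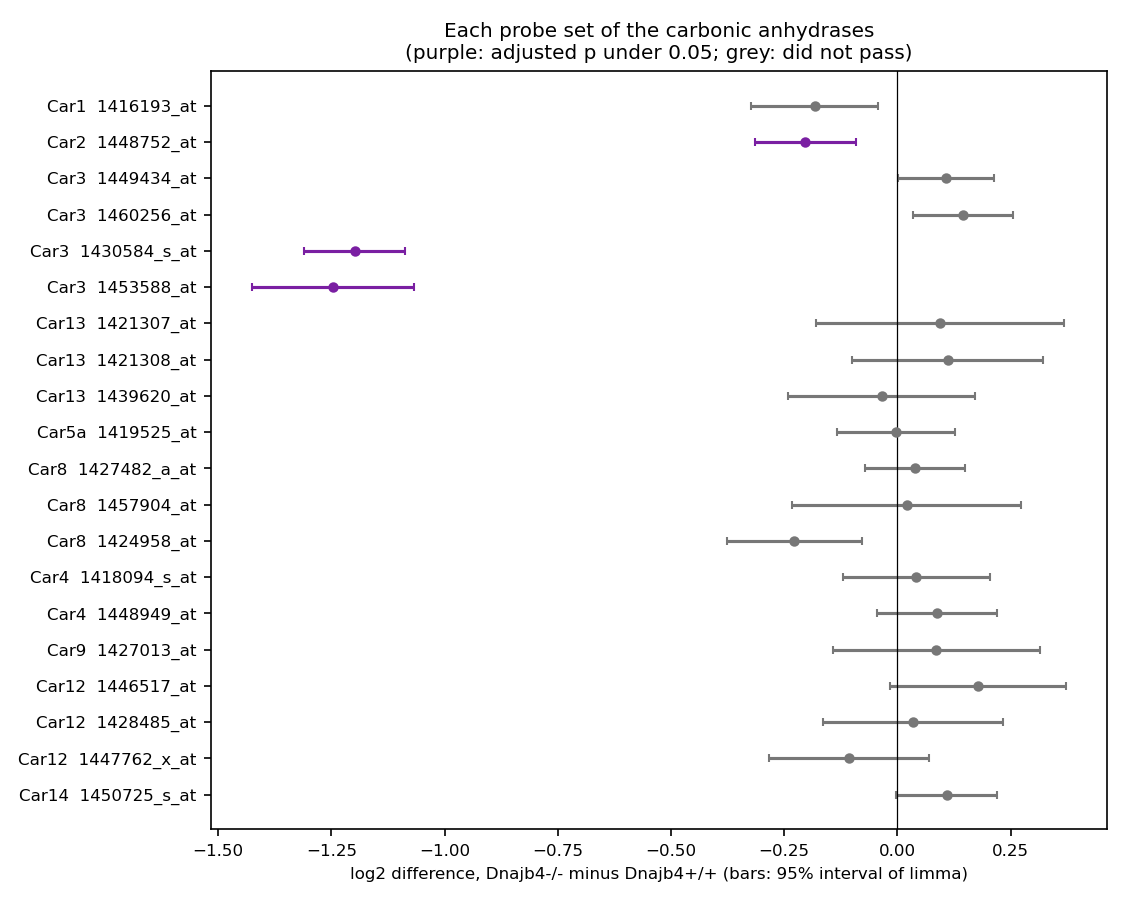
Log2 difference (x axis, Dnajb4-/- minus Dnajb4+/+) with limma's 95% interval for each of the 20 carbonic anhydrase probe sets, grouped by gene. The Car3 probe sets 1430584_s_at and 1453588_at lie at -1.20 and -1.25, and the other 18 lie between -0.23 and 0.18.

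Car14, a membrane enzyme present on hepatocytes in the mouse, was the only clearly measured member of the extracellular group. It read 600.5, 581.5 and 618.1 in Dnajb4+/+ and 642.4, 639.1 and 658.7 in Dnajb4-/- livers, without overlap. The log2 difference of 0.11 (standard error 0.04, 95% interval 0.01 to 0.20) did not pass (adjusted p = 0.127, limma). It passed under other scalings of the arrays, by quantile normalization and by centring on brighter probe sets (adjusted p = 0.0406 for both, limma).

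Car4, Car9 and Car12 had all their probe sets below the median of every array, as did Car13, so a difference in these genes would be hard to see. Car9, induced by hypoxia in tumors, read 12.6, 14.7 and 11.2 in Dnajb4+/+ and 13.8, 13.4 and 13.3 in Dnajb4-/- livers, with a log2 difference of 0.086 (95% interval -0.14 to 0.31, adjusted p = 0.596, limma). Car12, another hypoxia-related membrane enzyme, read 9.53 ± 0.446 and 9.76 ± 0.532 (SD, n = 3), a difference of 0.035 (95% interval -0.10 to 0.17, adjusted p = 0.728, limma). Car4, known from the endothelium of lung and other vessels, read 12.0 ± 0.324 and 12.6 ± 0.131 (SD, n = 3), with 0.065 (95% interval -0.03 to 0.16, adjusted p = 0.320, limma). At gene level its arrays did not overlap, and its probe sets each did. The endothelial markers differed beside it: of 13 measured, 6 were lower and 7 did not pass, with a median of -0.23 and summed signals of 2367 to 2477 and 2084 to 2192. Of these markers 46% passed, beside 14.7% of all genes.

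The letters ACGTG are a form of the core through which hypoxia acts on its target genes, and other forms of it were not searched. The stretch before the start site was searched for ACGTG in the 5 members with a RefSeq promoter entry (GRCm38.p6). These are Car4, Car5a, Car9, Car12 and Car14. In the 250 bases before the start and on both strands, ACGTG was found in Car9 and Car14. This is a common match, present in 16.6% of 32851 promoters. The 100 bases before each start are printed below, 5′ to 3′ on the strand of the gene, to show where the match lies, with the match in capitals. It reads CACGT here because it is on the opposite strand.
Car9, chr4:43506926-43507025, plus strand: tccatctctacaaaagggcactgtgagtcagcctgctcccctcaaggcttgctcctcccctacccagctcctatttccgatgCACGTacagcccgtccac
Car14, chr3:95904686-95904785, minus strand: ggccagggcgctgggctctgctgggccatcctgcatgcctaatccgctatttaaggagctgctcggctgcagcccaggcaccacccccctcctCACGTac
The match lies 18 to 14 bases before the start in Car9 and 7 to 3 bases before it in Car14. Of the other motifs searched, the CCAAT box (CCAAT, 33.8% of promoters) was found in Car9 and Car5a, and TATAAA (12.4%) and TTCNNNGAA (7.02%), the core bound by STAT factors, in none of the 5. The motifs share no match position, and a match of letters does not show a site in use.

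Hypoxia-induced genes outside the family gave the following values. Of 15 listed and measured, 3 were lower, 1 was higher (Pgk1) and 11 did not pass, with a median of 0.024. The share that passed was 26.7%, beside 14.7% of all genes. Bnip3, a mitochondrial protein of mitophagy, fell from 6113 ± 20.1 to 4541 ± 25.2 (SD, n = 3), by 0.43 on the log2 scale (adjusted p = 0.000443, limma). Vegfa, the growth factor of blood vessels, fell by 0.26 and Pdk1, a kinase that inhibits pyruvate dehydrogenase, by 0.19 (adjusted p = 0.00521 and 0.0446, limma). With arrays centred on brighter probe sets the balance turned to 3 higher and 2 lower, and with quantile normalization it was 2 higher and 3 lower. Pdk1 lost its call with that centring and without any 1 of the 6 arrays. When Dnajb4+/+ replicate 1 or 3 was left out, or likewise Dnajb4-/- replicate 2 or 3, the count of 4 became 2, Bnip3 and Vegfa.

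Transport proteins that move bicarbonate, chloride, protons or water were taken from a list of 24, of which 22 were measured. Of these, 1 was higher, 1 was lower and 20 did not pass, with a median of 0.010. The share that passed was 9.09%, beside 14.7% of all genes. Aqp1, the water channel of bile ducts, endothelium and red blood cells, read 1010, 999.6 and 1062 in Dnajb4+/+ and 814.8, 867.4 and 816.9 in Dnajb4-/- livers. The groups did not overlap, and the log2 difference was -0.30 (adjusted p = 0.00641, limma). Slc9a2, a sodium and proton exchanger, differed by 0.17 (adjusted p = 0.0295, limma) at 7.93 ± 0.216 and 8.93 ± 0.126 (SD, n = 3), below the lower quartile of the arrays. Aqp1 is also on the lists of cholangiocyte markers, of which 1 of 11 was higher, 2 were lower and 8 did not pass. Of these 11 markers 27.3% passed, beside 14.7% of all genes. Slc9a2 lost its call without any 1 of 5 arrays, the exception being Dnajb4+/+ replicate 2, while Aqp1 passed throughout. With quantile normalization or centring on brighter probe sets, 2 were higher and 1 was lower.

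Of the 6 other carbonic anhydrase genes, Car15 passed the test. Car15, a membrane-anchored form that is active in mice, read 28.6, 33.3 and 29.0 in Dnajb4+/+ and 37.0, 36.2 and 37.7 in Dnajb4-/- livers, higher by 0.29 on the log2 scale (standard error 0.06, adjusted p = 0.0259, limma). The Dnajb4+/+ signals of Car15 lay near the array medians of 31.8 to 32.5. Its call was lost without any 1 of 5 arrays, the exception being Dnajb4+/+ replicate 2, with an adjusted p of 0.0630 to 0.0845 (limma). The secreted and acatalytic Car11, with signals below the median of every array, differed by 0.28 and did not pass (adjusted p = 0.0963, limma). The secreted Car6 (0.085), cytosolic Car7 (0.046), acatalytic Car10 (0.046) and mitochondrial Car5b (0.023) did not pass either. The median of the 6 was 0.065, and 16.7% of them passed, beside 14.7% of all genes.

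**Figure D5:**
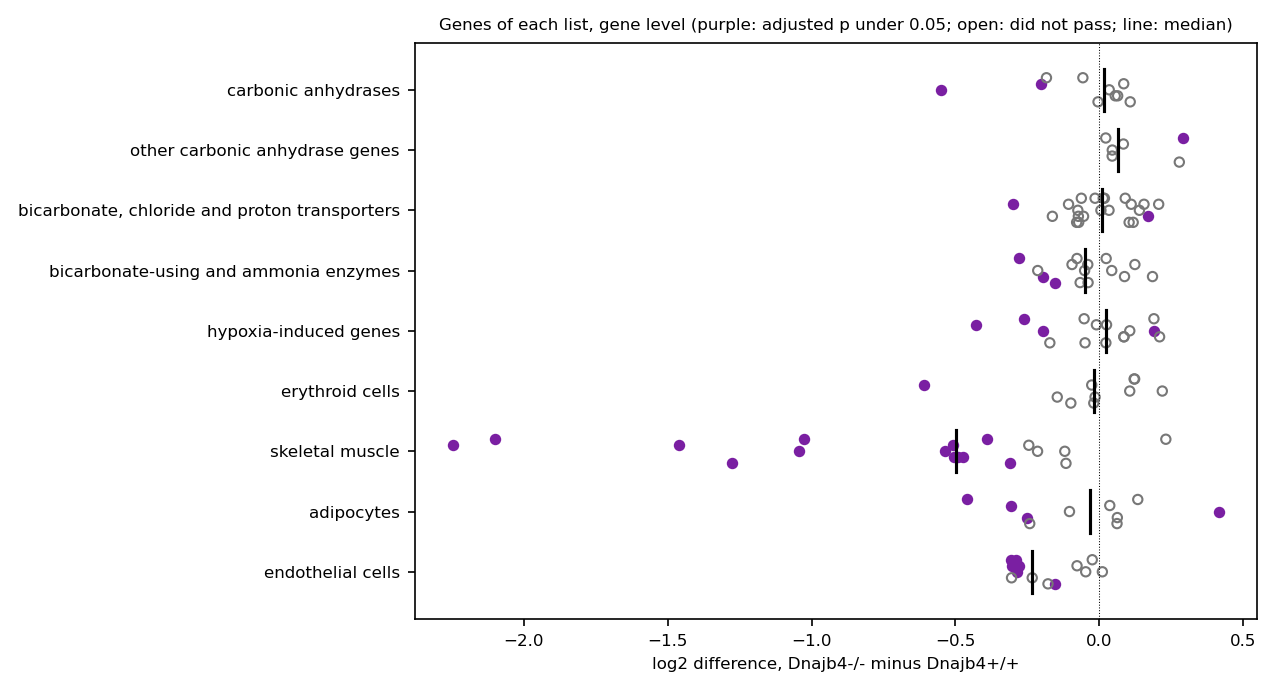
Log2 difference (x axis, Dnajb4-/- minus Dnajb4+/+) of each gene in the carbonic anhydrases and the lists compared with them, with filled points for genes at an adjusted p under 0.05 and a line at each list's median. The carbonic anhydrases have a median of 0.016, and the skeletal muscle markers lie lower, with a median of -0.50.

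The genes whose profile over the 6 arrays was nearest to the Car3 gene mean were St3gal5, a ganglioside-making sialyltransferase, Decr2, a peroxisomal reductase of fatty acid oxidation, Bche, butyrylcholinesterase, the lectin Clec2d and the chemokine Ccl9. The root mean square distance between the centred log2 profiles was 0.021 to 0.028, and their log2 differences were -0.57, -0.56, -0.57, -0.52 and -0.52. As Car3 is an average of probe sets that moved apart, these genes match that average and not any single Car3 probe set.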

How the data were processed

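Liver RNA of 6 mice was measured on Affymetrix mouse arrays. The file holds linear intensities, which the authors made in GeneSpring by GCRMA (background correction by probe GC content, normalization between arrays, 1 value per probe set) and centred on a global median. Raw scans and detection calls were not used here. Of 45101 probe sets, 64 controls were left out, and 932 with several symbols and 9160 with none were kept out of gene means. Log2 values were compared with limma 3.58.1 (lmFit and eBayes, two-sided) in R 4.3.3 over all features, with Benjamini-Hochberg adjustment, and the procedure was tested on simulated data. Figures used matplotlib 3.10.9. The members and gene lists were chosen with earlier results of these data known. Named are all members, the other carbonic anhydrases, up to 3 called genes per list with the largest difference, and the 5 genes nearest to Car3. The number of arrays limits the precision. Alternatives covered scaling, dim genes, probe set averaging, an offset of 16, the variance model, the methods' t-test, blocking by replicate number and leaving out single arrays.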

Additional observations from a re-analysis of the deposited data

How the results depend on the processing

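Both falling Car3 probe sets passed in all 14 alternatives (-1.21 to -1.14 and -1.31 to -1.12), and their within-gene differences in all 11 (-1.33 to -1.25 and -1.41 to -1.23). The Car3 gene mean turned from -0.55 to 0.11 with the brightest probe set alone, 0.10 with a linear mean over probe sets, and 0.13 with the RefSeq probe sets (added after seeing the data), and passed in none of these 3. The number of members called (2 genes, 3 probe sets) became 4 and 6 above the median signal, of 6 genes and 11 probe sets tested there. It was 4 and 7 above the upper quartile, of 6 and 9 tested, and 4 and 7 with the trend and robust variance model. Calls rose over all genes too, from 2667 of 18193 to 3248 of 9096 above the median signal and 2460 of 4548 above the upper quartile. The number of members called was 6 probe sets with 16 added, and 1 gene with the brightest probe set, 1 with a linear mean and 1 with the replicate block. Without single arrays it was 1 to 2 genes and 2 probe sets, where 1 means Car3 alone. The other carbonic anhydrases gave 0 with the methods' t-test, 0 with the replicate block and 0 to 1 without single arrays. The transporters gave 4 with the brightest probe set, 4 with a linear mean, 4 with the variance model, 1 with the block and 1 to 2 without single arrays. The bicarbonate and ammonia enzymes gave 6 of 10 tested above the upper quartile, 7 with the variance model, 1 with the block and 1 to 3 without single arrays. The hypoxia-induced genes gave 7 of 9 tested above the upper quartile, 2 without probe sets of a less specific suffix, 2 with the block and 2 to 4 without single arrays. All genes called were 2667, with 1529 under the block and 1552 to 2009 without single arrays, the fewest without Dnajb4+/+ replicate 1. Of these calls 34.7% were higher, and 52.2% with arrays centred on brighter probe sets, which moved the median of all genes from 0.0075 to 0.044.

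Differences near 0, none of which passed, changed sign. Car5a gave 0.0066 with quantile normalization, 0.033 with centring and -0.049 to 0.019 without single arrays. Car8 gave 0.039 with the brightest probe set and 0.031 with a linear mean. Without single arrays, Car9 ranged from -0.0095 to 0.19, Car12 from -0.003 to 0.079, Car5b from -0.043 to 0.060, Car7 from -0.015 to 0.13 and Car10 from -0.020 to 0.11, and Car7 was -0.18 with the brightest probe set. The cause of these changes was not tested. Replicate numbers did not pair the arrays: deviations of same-numbered arrays correlated at -0.021, -0.14 and 0.0091, and 1 of 6 arrays correlated best with its own number. The 4 dim members lie too near the background to show small differences.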
